A study of Rattus norvegicus with 6 samples.

Results

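The genes described here encode proteins of the Z-disc, the I-band and the M-band of the heart muscle sarcomere that carry or sense stretch. They are 10 genes chosen by name: Ankrd1, Ankrd2 and Ankrd23 of the I-band, Tcap, Csrp3, Xirp2, Ldb3 and Myoz2 of the Z-disc, and Myom1 and Myom2 of the M-band. Each gene was read from the array row that carries its symbol, or from the row with the highest mean over the 6 arrays where there was more than 1. That mean level served to pick the row and is not a result. A row was found for 9 of the 10 genes, 1 row each, among 15037 named genes and 23188 tested rows, and Myoz2, a calcineurin-binding protein of the Z-disc, is not analysed here. Whole hearts of male Sprague-Dawley rats, 10 weeks old at surgery per the labels, gave total RNA for 6 Clariom S Rat microarrays, 2 per group. TAC-R hearts had been released from TAC, TAC hearts stood under transverse aortic constriction, a ligature on the aortic arch that raises the load on the left ventricle, and normal hearts had no constriction. Control rats that had the surgery without the ligature are described in the labels, and whether these gave the normal hearts is not said there. The labels name no genetic change in any group, and no time under TAC or after release. Nor is it said that both arrays of a group stand for separate rats, so p-values measure array-to-array spread only, possibly a technical one.

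In the sarcomere, titin spans from the Z-disc, where actin filaments are anchored, through the elastic I-band to the M-band, where myosin filaments are linked to each other. Ankrd1, Ankrd2 and Ankrd23 form the muscle ankyrin repeat protein family, which binds titin in the I-band and can also enter the nucleus. Tcap caps the end of titin in the Z-disc, Csrp3 (muscle LIM protein) binds there, Ldb3 links to alpha-actinin, Xirp2 binds actin near Z-discs and intercalated discs, and the myomesins Myom1 and Myom2 cross-link myosin in the M-band. Ankrd1 is widely known as a transcript that responds to stretch and overload of heart muscle.

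All values are deposited log2 signals, so a difference of 1 unit is a doubling or halving of signal, and a level can be compared between arrays but not between genes. The values stop at a ceiling of 19.93. The negative control rows give the background, with a 95th percentile between 8.09 and 8.55 on the 6 arrays and a median between 4.39 and 4.63. Both were highest on the normal arrays, at 8.45 and 8.55 for the percentile and 4.56 and 4.63 for the median. On the normal arrays 5728 and 5426 tested rows exceeded the percentile, against 6203 to 6377 on the other arrays. The cause of this difference, which goes with the groups, was not tested. Medians over all tested rows lay between 5.31 and 5.39. Across rows, the arrays of a group correlated at 0.9913 for TAC-R, 0.9925 for TAC and 0.9926 for normal, against 0.9882 to 0.9908 between groups. In the labels the RNA extraction text mentions fibroblast culture, whereas the other fields give whole heart. The heart muscle genes Actc1, Myl3, Pln and Mb stood at the ceiling on all 6 arrays. In whole-heart RNA, fewer cells of a type and less RNA per cell cannot be told apart.

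On the TAC arrays most of these genes had their lowest signal. Myom2 fell against normal hearts. Ankrd23 and Tcap rose on the TAC-R arrays against TAC, and Ankrd23 also rose against normal hearts. Both TAC arrays lay below all 4 other arrays for 6 of the 9 genes (Ankrd1, Ankrd23, Tcap, Csrp3, Xirp2 and Myom2), as they did for 8.98% of all tested rows and 9.39% of the rows brighter on average than the background. The TAC and normal signals of Ankrd23 were in the background. Ldb3 differed by at most 0.22 log2 units between groups, Myom1 had its lowest signals on the TAC-R arrays, and Ankrd2 stayed in the background.

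**Figure D1:**
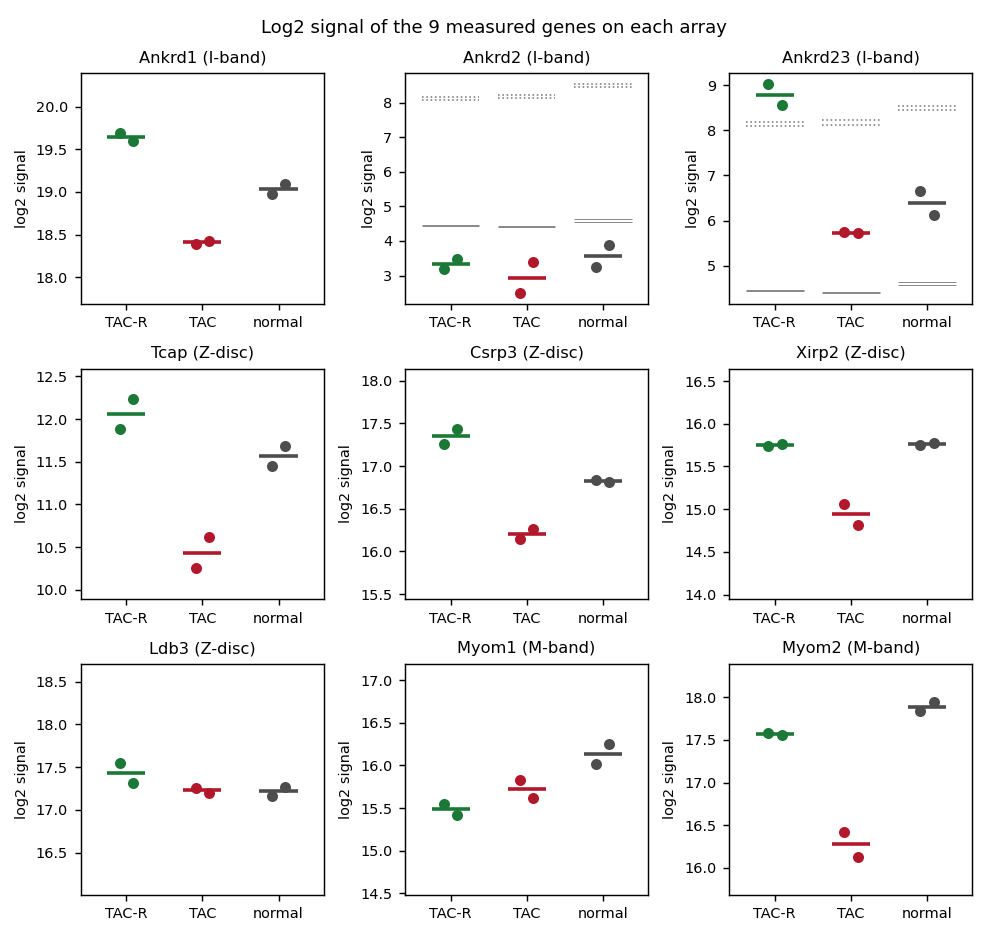
Log2 signal (vertical axes) of the 9 measured genes on each array, with TAC-R, TAC and normal hearts from left to right; points are arrays and bars are means of 2. Each panel has its own range, and those other than Ankrd2 and Ankrd23 span the same number of log2 units; in these 2 panels dotted lines are the 95th percentile and thin solid lines the median of the negative controls on each array. The TAC points are the lowest for Ankrd1, Ankrd23, Tcap, Csrp3, Xirp2 and Myom2, with the TAC and normal points of Ankrd23 in the background.

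Counted by limma's test over all rows (adjusted p under 0.05), 1 of 9 genes was lower and 0 were higher on the TAC arrays than on normal arrays, where 0.254% of all rows were called, 0.0647% lower and 0.19% higher. On the TAC-R arrays 2 of 9 were higher than on TAC arrays and 0 lower, with 0.431% of all rows called, 0.224% higher and 0.207% lower. Against normal hearts 1 of 9 was higher on the TAC-R arrays and 0 lower, with 0.0906% of all rows called, 0.0604% higher and 0.0302% lower. At an unadjusted p under 0.05, 6 were lower and 0 higher under TAC than on normal arrays, with 4.89% of all rows lower and 5.43% higher. Ankrd23 is among these 6, with its TAC and normal signals in the background. On TAC-R against TAC arrays 6 were higher and 0 lower by this count, with 4.79% and 6.2% of all rows, and on TAC-R against normal arrays 3 were higher and 1 lower, with 5.36% and 5.32% of all rows. The median difference of the 9 genes was -0.63 for TAC minus normal, 1.15 for TAC-R minus TAC and 0.22 for TAC-R minus normal, against 0.0017, 0.0045 and 0.0040 over all rows. Over the rows brighter on average than the background the medians were 0.0768, 0.0089 and 0.0858. The comparisons share arrays: the TAC arrays enter both the TAC minus normal and the TAC-R minus TAC differences, so a low TAC value moves them in opposite directions.

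The number of calls depended on how the spread of a row was estimated. Most of these genes are bright, and with a moderation whose prior follows the signal of the row, 5 of 9 were lower on TAC than on normal arrays (Myom2, Ankrd1, Xirp2, Csrp3 and Tcap, adjusted p from 7.22e-06 to 0.017), where 0.733% of all rows were called. With the same moderation 6 of 9 were higher on TAC-R than on TAC arrays (Ankrd1, Myom2, Csrp3, Ankrd23, Tcap and Xirp2, adjusted p from 4.52e-06 to 0.00322), with 1.48% of all rows called. Against normal hearts it called Ankrd23, Ankrd1 and Csrp3 higher and Myom1 lower on the TAC-R arrays (adjusted p = 0.00169, 0.0033, 0.0359 and 0.0304), with 0.673% of all rows called. Of the 170, 344 and 156 rows called with it in these comparisons, 125, 141 and 93 were higher. Shares among bright rows alone were not counted for this moderation. The standard error of Ankrd1 was 0.21 log2 units without the trend and 0.08 with it. The fit with the trend kept the 17 tested rows that stood at the ceiling on all 6 arrays. Whether these rows lowered the spread expected of bright rows was not tested.

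**Figure D2:**
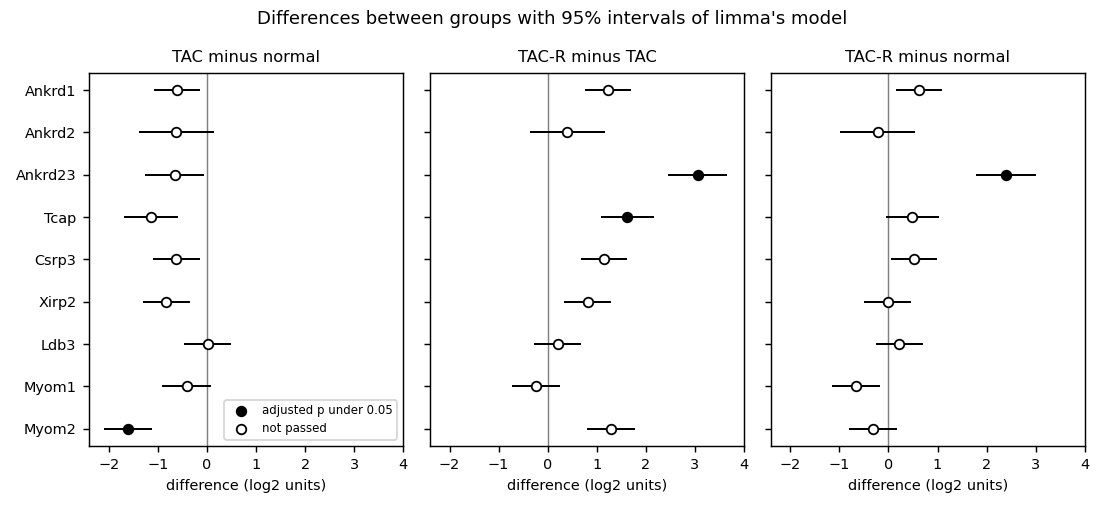
Difference in log2 units (horizontal axes) of each gene for TAC minus normal, TAC-R minus TAC and TAC-R minus normal; bars are 95% intervals of limma's model, not adjusted for the number of rows, and filled points passed an adjusted p of 0.05. The filled points are Myom2 on the left at -1.62, Ankrd23 and Tcap in the middle at 3.05 and 1.62, and Ankrd23 on the right at 2.39.

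The promoters of Ankrd23, Xirp2, Ldb3 and Myom1 are shown because these genes cover the patterns seen: Ankrd23 and Xirp2 lowest on TAC arrays, Ldb3 nearly level, and Myom1 lowest on TAC-R arrays. For Ankrd23 the TAC and normal signals were in the background. RefSeq promoter entries on GRCr8 matched 6 of the 10 genes. Each sequence is the 250 bases before the annotated start, read 5′ to 3′ on the strand of the gene, with matches to 5 motifs in capitals. The motifs, searched on both strands, were the MCAT element CATTCC bound by TEAD factors, AGATAA bound by GATA factors, TATAAA, the MEF2 site and the CArG box bound by SRF.
Ankrd23, chr9:46274511-46274760, minus strand: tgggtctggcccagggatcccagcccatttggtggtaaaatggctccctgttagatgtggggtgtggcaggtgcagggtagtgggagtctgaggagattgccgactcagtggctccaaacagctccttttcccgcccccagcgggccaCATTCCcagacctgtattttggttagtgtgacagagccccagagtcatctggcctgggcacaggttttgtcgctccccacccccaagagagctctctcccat
Xirp2, chr3:72533936-72534185, plus strand: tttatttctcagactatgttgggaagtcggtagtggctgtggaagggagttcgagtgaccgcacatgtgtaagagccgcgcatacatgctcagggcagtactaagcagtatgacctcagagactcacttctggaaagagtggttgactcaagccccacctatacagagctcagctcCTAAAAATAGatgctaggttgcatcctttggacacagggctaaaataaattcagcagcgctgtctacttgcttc
Ldb3, chr16:9924680-9924929, minus strand: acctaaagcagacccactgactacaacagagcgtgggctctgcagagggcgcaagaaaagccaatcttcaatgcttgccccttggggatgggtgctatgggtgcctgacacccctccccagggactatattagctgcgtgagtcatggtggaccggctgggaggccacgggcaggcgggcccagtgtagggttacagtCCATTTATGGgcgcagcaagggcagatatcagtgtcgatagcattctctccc
Myom1, chr9:118366896-118367145, plus strand: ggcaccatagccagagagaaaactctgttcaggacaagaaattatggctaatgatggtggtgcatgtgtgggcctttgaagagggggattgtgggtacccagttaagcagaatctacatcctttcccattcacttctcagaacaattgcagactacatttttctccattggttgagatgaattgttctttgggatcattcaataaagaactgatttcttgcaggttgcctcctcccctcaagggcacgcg

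The Ankrd23 window held an MCAT element 102 to 97 bases before the start, as 12.1% of 33469 promoter windows of the same length held at least 1. The Xirp2 window held a MEF2 site 74 to 65 bases before the start, a motif in 2.96% of windows. In Ldb3 a CArG box lay 52 to 43 bases before the start, a motif in 1.5% of windows. The Myom1 window held none of the 5 motifs in its 250 bases. The E-box CANNTG, also searched and left in lower case because 65.5% of windows held it, matched 2 times in Myom1, 3 times in Ankrd23, 2 overlapping times in Xirp2 and 0 times in Ldb3. The GATA motif was in 10.3% of windows and TATAAA in 12.9%, and TATAAA, MEF2 and CArG matches can overlap. These are matches of letters, and binding was not measured.

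Of the I-band genes, Ankrd1, cardiac ankyrin repeat protein, had log2 signals of 19.69 and 19.60 on the TAC-R arrays, 18.39 and 18.43 on the TAC arrays, and 18.97 and 19.09 on the normal arrays. The 3 groups did not overlap, with TAC-R highest and TAC lowest. The TAC minus normal difference was -0.61 ± 0.21 (model standard error; adjusted p = 0.383), a signal of 65.3% of normal with a 95% interval of the log2 difference from -1.08 to -0.15. For TAC-R minus TAC it was 1.23 ± 0.21 (adjusted p = 0.0515), 2.34-fold with an interval from 1.70 to 3.24. For TAC-R minus normal it was 0.61 ± 0.21 (adjusted p = 0.358). None of these passed. The TAC-R mean of Ankrd1 lay 0.29 below the ceiling, where Tnnt2 and Tnni3 stood between 19.87 and 19.88 on all arrays. Whether the ceiling narrowed the Ankrd1 difference was not tested. Leaving out any single array kept TAC-R minus TAC between 1.18 and 1.28.

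Ankrd23, the diabetes-related member of the family, had 9.03 and 8.55 on the TAC-R arrays, 5.74 and 5.72 on the TAC arrays, and 6.66 and 6.13 on the normal arrays. Only the TAC-R signals exceeded the negative-control 95th percentile, and the TAC and normal signals lay between the median and that percentile. The measured difference was 3.05 ± 0.27 for TAC-R minus TAC (adjusted p = 0.00416) and 2.39 ± 0.27 for TAC-R minus normal (adjusted p = 0.0207). Because the lower signals sit in the background, the fold is given as a bound, the TAC-R mean over the mean of the percentiles of the dim arrays. On that basis Ankrd23 was at least 1.53-fold higher on TAC-R than on TAC arrays, with means of 8.79 ± 0.34 and 5.73 ± 0.02 (SD, n = 2 each), and at least 1.22-fold higher than on normal arrays, with a normal mean of 6.39 ± 0.38. These bounds carry no error of their own. The bound against normal hearts, 0.29 log2 units, is about as large as the model standard error of 0.27. TAC-R replicate 2, at 8.55, stood level with the percentile of normal replicate 2, also 8.55. For TAC minus normal the values differed by -0.66 ± 0.27 (adjusted p = 0.453), both in the background. Against TAC the call was lost without TAC replicate 1 or TAC replicate 2 (adjusted p = 0.0508 and 0.0723), at measured differences of 3.06 and 3.04. Against normal hearts the difference lay between 2.13 and 2.66 in the fits that left out an array, and the call was lost in each of them (adjusted p from 0.0581 to 0.301), with control rows kept (adjusted p = 0.0554) and when TAC arrays were left out of the model (adjusted p = 0.0581).

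Ankrd2, the member best known from skeletal muscle, had 3.19 and 3.49 on the TAC-R arrays, 2.49 and 3.38 on the TAC arrays, and 3.25 and 3.87 on the normal arrays. All 6 signals were under the negative-control median of their array, and the groups overlapped. Its differences, -0.62 ± 0.34 for TAC minus normal, 0.40 ± 0.34 for TAC-R minus TAC and -0.22 ± 0.34 for TAC-R minus normal (adjusted p = 0.555, 0.728 and 0.859), are differences within the background.

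In the Z-disc, Tcap, also called telethonin, had 11.89 and 12.23 on the TAC-R arrays, 10.25 and 10.62 on the TAC arrays, and 11.45 and 11.69 on the normal arrays. The groups did not overlap. Tcap rose on the TAC-R arrays by 1.62 ± 0.24 log2 units against TAC, 3.08-fold with an interval from 2.11 to 4.50 (limma, adjusted p = 0.036). Against normal hearts the TAC difference was -1.13 ± 0.24 (adjusted p = 0.162), a signal of 45.6% of normal, and the TAC-R difference was 0.49 ± 0.24 (adjusted p = 0.516). Without any single array the rise against TAC kept its direction, at 1.44 to 1.80, and lost its call in each case (adjusted p from 0.094 to 0.256). It was also not called with control rows kept in the fit or with only the 2 groups in it (adjusted p = 0.076 and 0.094).

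Csrp3, muscle LIM protein, whose loss causes dilated cardiomyopathy in mice, had 17.26 and 17.44 on the TAC-R arrays, 16.14 and 16.26 on the TAC arrays, and 16.84 and 16.81 on the normal arrays. As for Ankrd1 and Tcap, the order was TAC-R, normal, TAC with no overlap. The difference was 1.15 ± 0.21 for TAC-R minus TAC (adjusted p = 0.0677), 2.22-fold with an interval from 1.60 to 3.08. It was -0.63 ± 0.21 for TAC minus normal and 0.53 ± 0.21 for TAC-R minus normal (adjusted p = 0.383 and 0.43). None passed.

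Xirp2, a Xin repeat protein, followed another order. Its signals were 15.74 and 15.76 on the TAC-R arrays, 15.06 and 14.82 on the TAC arrays, and 15.75 and 15.77 on the normal arrays. TAC alone stood apart, and TAC-R and normal arrays overlapped. The difference was -0.83 ± 0.21 for TAC minus normal and 0.81 ± 0.21 for TAC-R minus TAC (adjusted p = 0.254 and 0.192), neither of which passed. For TAC-R minus normal it was -0.01, with an interval from -0.49 to 0.47. Turned round, the normal signal was 0.723 to 1.40 times the TAC-R signal.

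Ldb3, also called ZASP or Cypher, which ties alpha-actinin to protein kinase C, had 17.55 and 17.32 on the TAC-R arrays, 17.26 and 17.20 on the TAC arrays, and 17.16 and 17.27 on the normal arrays. Its 6 signals spanned 0.39 log2 units, the narrowest range of the 9 genes. The difference was 0.01 for TAC minus normal, 0.21 for TAC-R minus TAC and 0.22 for TAC-R minus normal, each ± 0.21 (adjusted p = 0.991, 0.781 and 0.756). The sign of the TAC minus normal difference turned to -0.03 after quantile normalization. Set against Ldb3 on the same array, with the normal mean as 0, the log2 ratio of Ankrd1 was 0.33 and 0.46 on the TAC-R arrays and -0.68 and -0.58 on the TAC arrays. The ratio of Csrp3 to Ldb3 was 0.11 and 0.51 on the TAC-R arrays and -0.73 and -0.55 on the TAC arrays. The ratio of Tcap to Ldb3 was -0.01 and 0.55 on the TAC-R arrays and -1.36 and -0.94 on the TAC arrays. For Xirp2 it was -0.36 and -0.11 on the TAC-R arrays and -0.75 and -0.93 on the TAC arrays, and for Myom2 -0.64 and -0.44 on the TAC-R arrays and -1.52 and -1.75 on the TAC arrays. For all 5 genes both TAC ratios lay under both TAC-R ratios, and against normal arrays those of Xirp2 and Myom2 were also lower on the TAC-R arrays. Ldb3 had the narrowest range, and the 5 genes are among those already described as lowest on TAC arrays. The ratios therefore restate these signals and are not further evidence. Myom1 was not set against Ldb3. These ratios show unequal change of the genes within the arrays.

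In the M-band, Myom2, M-protein, had 17.58 and 17.56 on the TAC-R arrays, 16.42 and 16.13 on the TAC arrays, and 17.84 and 17.94 on the normal arrays. The groups did not overlap, with normal highest. Myom2 fell by 1.62 ± 0.22 log2 units on the TAC arrays against normal hearts, 3.07-fold with an interval from 2.19 to 4.31 (limma, adjusted p = 0.0233). The means were 16.27 ± 0.21 on TAC arrays and 17.89 ± 0.08 on normal arrays (SD, n = 2 each). On TAC-R arrays it was higher than on TAC arrays by 1.30 ± 0.22 (adjusted p = 0.0505), 2.46-fold, which did not pass. TAC-R minus normal was -0.32 ± 0.22 (adjusted p = 0.624), with an interval from -0.81 to 0.17. The fall under TAC kept its size without any single array, between -1.76 and -1.47, and lost its call each time (adjusted p from 0.065 to 0.265). It also lost its call with control rows kept or with only the 2 groups in the fit (adjusted p = 0.0517 and 0.065).

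Myom1, myomesin, which binds titin and myosin in the M-band, had 15.55 and 15.42 on the TAC-R arrays, 15.83 and 15.62 on the TAC arrays, and 16.02 and 16.25 on the normal arrays. The groups did not overlap, and here TAC-R was lowest. The difference was -0.66 ± 0.22 for TAC-R minus normal, -0.41 ± 0.22 for TAC minus normal and -0.24 ± 0.22 for TAC-R minus TAC (adjusted p = 0.353, 0.545 and 0.744), none of which passed. The log2 ratio of Myom2 to Myom1, with the normal mean as 0, was 0.28 and 0.39 on the TAC-R arrays, -1.16 and -1.24 on the TAC arrays, and 0.06 and -0.06 on the normal arrays. Relative to its partner myomesin, Myom2 was thus low on the TAC arrays and slightly above the normal arrays on the TAC-R arrays.

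Ordered by the size of their differences among all 23188 tested rows, these genes stood near the edge in some comparisons. Myom2 had the 14th lowest TAC minus normal difference, and the 8th lowest among the 6207 rows brighter on average than the 95th percentile of the negative controls. Tcap was 63rd lowest among all rows and 18th among the bright rows. In TAC-R minus TAC, among the bright rows, Tcap was 26th highest, Myom2 40th, Ankrd1 45th, Csrp3 51st and Xirp2 121st. Groups did not overlap for 7 of 9 genes with lower signal on TAC than on normal arrays, against 21.3% of all rows and 17.6% of bright rows, and for 0 with higher signal, against 21.9% of all rows and 32.2% of bright rows. Ankrd23 is among these 7, though both of these groups were in the background for it. On TAC-R against TAC arrays 7 of 9 were higher without overlap, against 20.1% of all rows and 24.3% of bright rows, and 1, Myom1, was lower, against 20.4% of all rows and 24.0% of bright rows. On TAC-R against normal arrays 5 were higher without overlap, against 20.6% of all rows and 29.8% of bright rows, and 2 lower, against 20.3% of all rows and 16.3% of bright rows. As the genes were picked with results of these arrays known, the counts describe them and are not independent evidence.

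**Figure D3:**
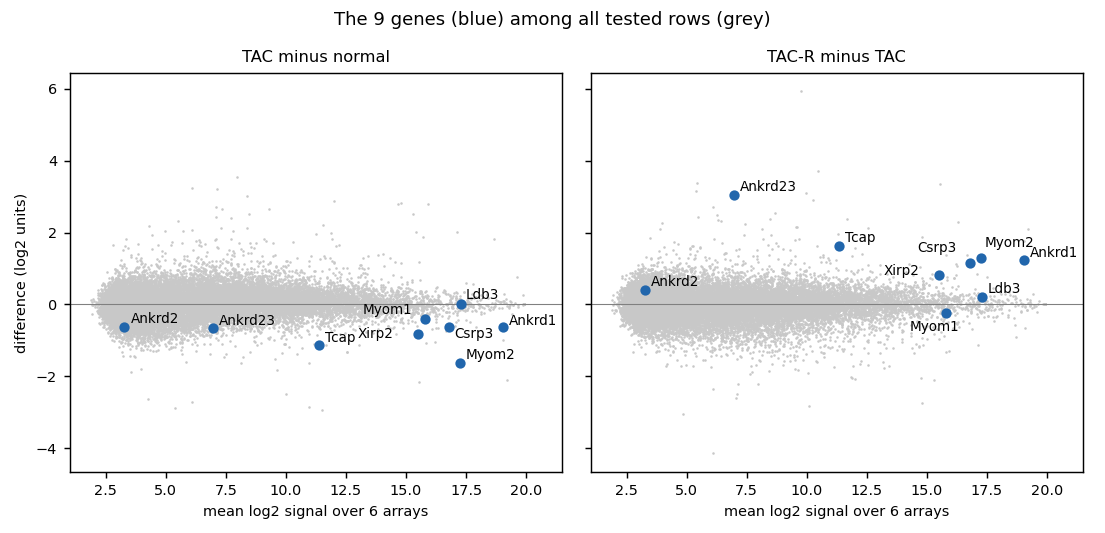
Difference in log2 units (vertical axis) against mean log2 signal over 6 arrays (horizontal axis) for all 23188 tested rows (grey) and the 9 genes (blue), for TAC minus normal on the left and TAC-R minus TAC on the right. Spread narrows at high signal, and Myom2 at -1.62 on the left and Ankrd23 at 3.05 on the right lie outside most rows of like signal, the TAC signals of Ankrd23 being in the background.

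Other genes of the same structures were counted from lists of titin-linked I-band partners, Z-disc partners, M-band partners and regulators of stretch and muscle genes. Capn3, Myoz1, Csrp2, Hand2, Hdac4 and Hdac5 of these lists were in the background on all 6 arrays. Of all rows, 5.43% were higher and 4.89% lower at an unadjusted p under 0.05 for TAC minus normal. These shares were 4.79% and 6.2% for TAC-R minus TAC, and 5.36% and 5.32% for TAC-R minus normal. Of 10 measured I-band partners 0 passed limma's test in any comparison, and at an unadjusted p under 0.05 there were 0 for TAC minus normal, 2 higher for TAC-R minus TAC and 1 higher for TAC-R minus normal. Their median difference was -0.16 for TAC minus normal and 0.28 for TAC-R minus TAC. The largest were those of Hspb1, a small heat shock protein, at 0.50 and Smyd2, a methyltransferase at the titin N2A region, at -0.46 for TAC minus normal (adjusted p = 0.517 and 0.511). For TAC-R minus TAC they were Trim54, a sarcomeric ubiquitin ligase, at 0.90 and Hspb1 at 0.57 (adjusted p = 0.218 and 0.443), and for TAC-R minus normal Hspb1 at 1.08 and Trim54 at 0.55 (adjusted p = 0.225 and 0.472).

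Of 19 measured Z-disc partners 0 passed in any comparison. At an unadjusted p under 0.05, 2 were higher and 1 lower for TAC minus normal, 3 higher and 1 lower for TAC-R minus TAC, and 2 higher for TAC-R minus normal. Their median differences were -0.01, 0.12 and 0.22. Csrp1, the relative of Csrp3 typical of smooth muscle, differed by 0.80 and Pdlim3, which binds alpha-actinin, by 0.70 for TAC minus normal (adjusted p = 0.365 and 0.403). Myot, myotilin, differed by 1.53 and Nrap, a nebulin-related anchoring protein, by 0.85 for TAC-R minus TAC (adjusted p = 0.141 and 0.17). Only the TAC-R signals of Myot, 9.30 and 8.56, were above the 95th percentile of the controls. For TAC-R minus normal the largest were Myot at 1.45 and Pdlim3 at 0.82 (adjusted p = 0.229 and 0.322).

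Of 7 measured M-band partners 0 passed in any comparison, and at an unadjusted p under 0.05 there was 1 lower for TAC minus normal and 1 higher in each of the other comparisons. Sqstm1, the autophagy receptor p62, differed by -0.60 for TAC minus normal, 1.12 for TAC-R minus TAC and 0.52 for TAC-R minus normal (adjusted p = 0.4, 0.0789 and 0.431). Lrrc39, the M-band protein myomasp, differed by 0.35 and -0.46 in the first 2 of these (adjusted p = 0.597 and 0.477), and Fbxo32, the ubiquitin ligase atrogin-1, by 0.18 for TAC-R minus normal (adjusted p = 0.8). Median differences of the M-band partners were 0.12, -0.14 and 0.11.

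Of 13 measured regulators 1 passed, for TAC-R minus TAC, and 0 passed in the other comparisons. This was Rcan1, the calcineurin inhibitor induced by calcineurin, which rose by 1.37 log2 units on TAC-R against TAC arrays (limma, adjusted p = 0.0366). Its signals were 17.29 and 17.41 on the TAC-R arrays, 16.00 and 15.96 on the TAC arrays, and 16.69 and 16.73 on the normal arrays, without overlap. At an unadjusted p under 0.05, 1 regulator was higher and 1 lower for TAC minus normal, 1 higher and 2 lower for TAC-R minus TAC, and 4 were higher for TAC-R minus normal. Srf, serum response factor, and Rcan1 differed by 0.94 and -0.73 for TAC minus normal (adjusted p = 0.27 and 0.301), and Srf and Nkx2-5 by 0.90 and 0.68 for TAC-R minus normal (adjusted p = 0.3 and 0.445).

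**Figure D4:**
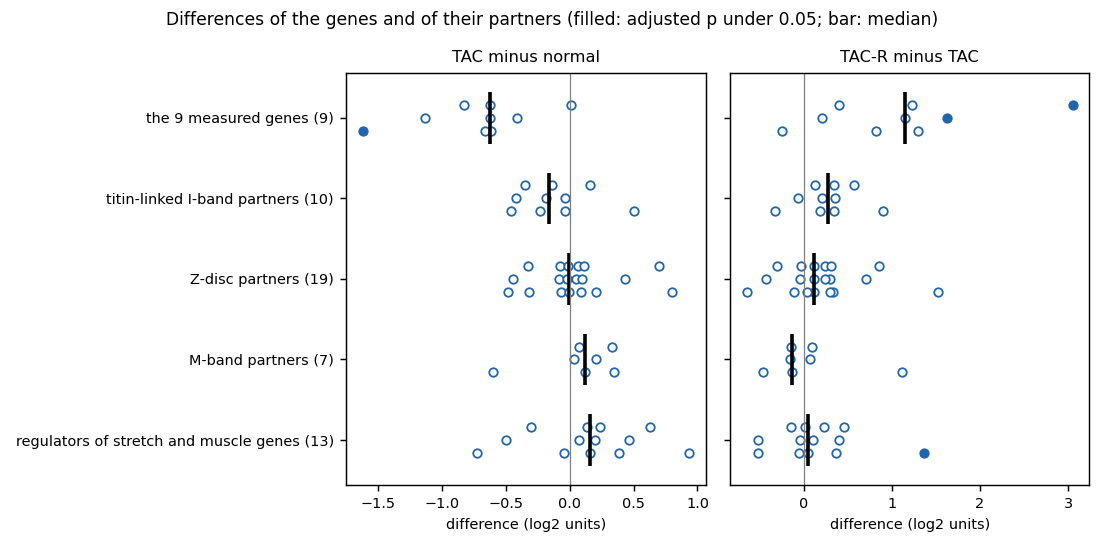
Difference in log2 units (horizontal axes) of the 9 genes and of the measured genes of 4 partner lists, for TAC minus normal and TAC-R minus TAC; each point is a gene, filled where it passed an adjusted p of 0.05, and bars are medians. The medians of the 9 genes are -0.63 and 1.15, and those of the partner lists lie between -0.16 and 0.28. Genes and lists were chosen with earlier results of these data known, so the medians describe them and are not independent evidence. Some partners were in the background on all arrays.

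Several of these genes are also skeletal muscle genes. Of 14 measured skeletal muscle markers 12 did not reach the negative-control 95th percentile on any of the 6 arrays, among them Myh2, Myh4, Tnnt3, Actn3 and Pvalb. The summed signal of the list was 109% and 99.8% of the normal mean on the TAC-R arrays, 50.5% and 51.0% on the TAC arrays, and 96.4% and 104% on the normal arrays. Casq1, skeletal calsequestrin, was above that percentile on all 6 arrays: its signals were 11.17 and 11.12 on the TAC-R arrays, 9.79 and 9.88 on the TAC arrays, and 11.00 and 11.12 on the normal arrays. Casq1 carried most of the sum: without it, a sum formed after the values were seen, the other 13 markers gave 114% and 83.8% on the TAC-R arrays, 83.9% and 76.6% on the TAC arrays, and 98.4% and 102% on the normal arrays. Casq1 rose on TAC-R against TAC arrays by 1.31 log2 units (adjusted p = 0.043), and differed by -1.22 for TAC minus normal (adjusted p = 0.0746). The part of skeletal muscle RNA in the results above was not tested beyond these values.

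Of the atrial muscle markers, 1 of 8, Myl7, rose on the TAC-R arrays, at least 38.0-fold against TAC and at least 30.3-fold against normal hearts, as bounds made like those of Ankrd23 (limma, adjusted p = 0.00315 and 0.0105). Of these 8 measured markers 2, Sln and Bmp10, were below that percentile on all arrays. The summed signal was 788% and 246% of the normal mean on the TAC-R arrays, 113% on each TAC array, and 101% and 98.6% on the normal arrays. Myl7, the atrial light chain, had 14.30 and 12.54 on the TAC-R arrays, 7.48 and 7.51 on the TAC arrays, and 8.40 and 8.43 on the normal arrays, the TAC and normal signals lying in the background, so TAC-R replicate 1 carried far more of the atrial signal than TAC-R replicate 2. On these 2 TAC-R arrays Ankrd23 had 9.03 and 8.55, Ankrd1 19.69 and 19.60, Ldb3 17.55 and 17.32, and Myom1 15.55 and 15.42. Tcap had 11.89 and 12.23 on them, Csrp3 17.26 and 17.44, Xirp2 15.74 and 15.76, and Myom2 17.58 and 17.56. Both had far more Myl7 than the TAC arrays, so setting them side by side does not measure the part of atrial RNA. Nppa, atrial natriuretic peptide, had 13.69 and 11.26 on the TAC-R arrays, 8.60 and 8.92 on the TAC arrays, and 9.97 and 10.32 on the normal arrays, and did not pass for TAC-R minus TAC (3.71, adjusted p = 0.0527). Of the markers above background on all 6 arrays, Dkk3 and Tbx5 had differences of 0.76 and 0.51 for TAC minus normal and Nppa one of -1.38 (adjusted p = 0.302, 0.482 and 0.492), so the sum on the TAC arrays joins unlike genes. Without TAC-R replicate 1 the TAC-R minus TAC difference was 1.79 for Tcap, 1.24 for Csrp3, 1.18 for Ankrd1 and 2.81 for Ankrd23. The part of atrial RNA in these differences was not tested beyond these values.

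The summed signal of 9 heart muscle markers was 99.4% and 98.0% of the normal mean on the TAC-R arrays, 98.7% and 98.8% on the TAC arrays, and 101% and 99.3% on the normal arrays, with 4 of the 9 at the ceiling and Tnnt2 and Tnni3 within 0.1 of it, so that this sum could hardly vary. The other 3, Myl2, Ryr2 and Actn2, summed to 96.0% and 87.1% on the TAC-R arrays, 91.2% and 92.9% on the TAC arrays, and 105% and 95.2% on the normal arrays. Ryr2, the calcium release channel of heart muscle, is the marker farthest from the ceiling, and differed by -0.70 for TAC minus normal and 0.49 for TAC-R minus TAC (adjusted p = 0.36 and 0.468). The 7 measured fibroblast markers summed to 79.3% and 60.9% of normal on the TAC-R arrays and 120% and 128% on the TAC arrays, against 112% and 88.2% on the normal arrays. Of these 7, 2 fell on TAC-R against TAC arrays, the collagens Col1a2 (-1.66, adjusted p = 0.0469) and Col3a1 (-1.72, adjusted p = 0.0269), and Tcf21 alone was below the percentile on all arrays. The 8 measured erythroid markers summed to 164% and 176% on the TAC-R arrays and 232% and 224% on the TAC arrays, against 97.1% and 103% on the normal arrays, with Ahsp and Epb42 below the percentile throughout. The globins Hba-a1 and Hbb carried most of this sum, and Hba-a1 stood at the ceiling on both TAC arrays, so the TAC sums were capped. Of these 8, Alas2, Slc4a1, Hbb, Hbb-b1 and Hbb-bs rose on TAC against normal arrays (5 genes, adjusted p from 0.00341 to 0.0165). On TAC-R against TAC arrays 3 of them fell, Slc4a1, Hbb-b1 and Hbb-bs (adjusted p = 0.014, 0.00416 and 0.0151), and Alas2 alone passed on TAC-R against normal arrays (higher, adjusted p = 0.0493). The normal signals of Alas2 and Slc4a1 and the TAC-R signals of Slc4a1 were in the background. As bounds, Alas2 was at least 2.49-fold and Slc4a1 at least 2.66-fold higher on TAC than on normal arrays. Slc4a1 was at least 3.42-fold higher on TAC than on TAC-R arrays, and no bound could be given for Alas2 on TAC-R against normal arrays. The globin rows have near-identical copies, so their signals may be shared. Smooth muscle markers summed to 94.9% and 61.6% on the TAC-R arrays and 152% and 143% on the TAC arrays, against 103% and 97.2% on the normal arrays, with Cnn1 of 5 below it. Cnn1 was the 1 smooth muscle marker past the test, higher on TAC than on normal arrays (adjusted p = 0.0319), with both groups in the background. Endothelial markers summed to 68.9% and 38.7% on the TAC-R arrays and 92.1% and 86.2% on the TAC arrays, against 99.9% and 100% on the normal arrays, with Tie1 of 5 below it. Macrophage markers summed to 104% and 118% on the TAC-R arrays and 132% and 137% on the TAC arrays, against 107% and 92.7% on the normal arrays, with 4 of 6 below it, Cd68 and Csf1r among them. The part of these cell types in the differences of the sarcomere genes was not tested.

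For the genes that passed in any comparison, the named genes of nearest profile were sought among 4585 named rows brighter on average than the background, by the distance between profiles over the 6 arrays, each centred on its own mean. Nearest to Ankrd23 were Aif1l, an actin-binding protein (distance 0.469), Maoa, monoamine oxidase A (1.20), and Ncf1, a subunit of NADPH oxidase (1.20). Aif1l had 12.13 and 11.95 on the TAC-R arrays, 9.20 and 9.08 on the TAC arrays, and 9.62 and 9.60 on the normal arrays, all above the background. Nearest to Tcap were Acta1, skeletal actin (0.400), Zbtb16, a transcription factor (0.402), and Rcan1 (0.542). Acta1 reached the ceiling on TAC-R replicate 2. Its signals were 19.85 and 19.93 on the TAC-R arrays, 17.98 and 18.29 on the TAC arrays, and 19.17 and 19.09 on the normal arrays. Nearest to Myom2 were Casq1 (0.536), Penk, proenkephalin (0.584), and Txnip, thioredoxin-interacting protein (0.664). The 6 arrays form 3 groups of 2, so many genes share the order of the group means.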

How the data were processed

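Rat heart RNA was hybridised to 6 Clariom S Rat arrays. The authors deposited log2 signals summarised by RMA over core exons with the Expression Console software, per the labels; its version and the genome build are not stated there. The values were used without further scaling. Of 24834 rows, 1646 control rows were left out, and 23188 rows were tested, of which 15049 carried 1 gene symbol in the platform annotation. Groups follow the sample titles.

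Differences were tested with limma 3.58.1 in R 4.3.3 (linear model with 1 mean per group over all 6 arrays, 3 residual degrees of freedom, empirical Bayes moderation with a prior of 5.71 degrees of freedom, Benjamini-Hochberg adjustment over all rows, threshold 0.05). The code was tested on simulated data. Errors are model standard errors or SDs of 2 arrays, and the number of arrays limits the precision: an exact two-sided permutation test of 2 against 2 cannot go below p = 0.33. The 1153 negative control rows gave each array's background. The 10 genes and all lists were chosen with earlier results of these data known. Named are all 10 genes, genes of the partner lists past the threshold (with none past it, the 2 of largest difference), and the 3 genes of nearest profile. Cell type markers named with values beside the marker sums were chosen after their values were seen. Alternatives were a replicate block, each array left out, other moderations, filters, groups and scalings. Motifs were sought in RefSeq promoter windows.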

Additional observations from a re-analysis of the deposited data

How the results depend on the processing

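Over all rows, 59, 100 and 21 rows were called for TAC minus normal, TAC-R minus TAC and TAC-R minus normal, in this order below, of which 1, 2 and 1 were among the 9 genes. With an intensity trend there were 170, 344 and 156 rows, with 5, 6 and 4 of the genes. With the replicate block there were 36, 47 and 11 rows, with 0, 2 and 1 of the genes, Myom2 under TAC losing its call (adjusted p = 0.0653), and the block changed no other call of the genes. Nothing in the labels pairs arrays of the same number, whose deviations from the group means correlated at -0.0127 for TAC-R and TAC, -0.00932 for TAC-R and normal and 0.0117 for TAC and normal. With control rows kept there were 39, 44 and 10 rows, with 0, 1 and 0 genes. With only the 2 groups in the fit there were 35, 37 and 12 rows, with 0, 1 and 0 genes. Without rows below the median row mean, which drops Ankrd2, 187 and 68 rows were called in the last 2 comparisons, with 5 genes for TAC-R minus TAC. Without ceiling rows 143 rows with 4 genes were called for TAC-R minus TAC, and 37 rows with 1 for TAC-R minus normal. With arrays centred on their medians the counts were 144 rows with 5 genes and 54 rows with 1, in the same order. Robust moderation called 128 rows with 4 of the genes for TAC-R minus TAC. Fits that left out 1 array called 0 to 35, 4 to 37 and 0 to 12 rows, and 0, 0 to 1 and 0 of the genes. With limma, 0 rows were called for TAC minus normal without TAC replicate 2, where 2025 had an unadjusted p under 0.05, and for TAC-R minus normal without normal replicate 2, where 1630 had. In all fits with 0 of the genes called, 2 to 7 had an unadjusted p under 0.05, with 6.79% to 11.5% of all rows. Signs turned for Ldb3 under TAC with quantile normalization (-0.028) and on leaving out arrays (-0.040 to 0.069), for Ankrd2 on leaving out arrays (-0.042 to 0.848 for TAC-R minus TAC and -0.531 to 0.091 for TAC-R minus normal), and for Xirp2 in TAC-R minus normal with centred arrays (0.037). All of these are uncalled differences. Of 402 values of single genes under an alternative, 348 kept direction and side of the threshold, 27 lost and 21 gained a call, and 6 turned sign. Averaging the rows of a gene changed nothing, since each gene had 1 row. Besides the construction of each setting, the cause of these changes was not tested. Signals in the background limit Ankrd2 and Ankrd23, and Ankrd1 lies near the ceiling, an influence that was not tested.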
